A study of Mus musculus with 34 samples.

Results

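Mas-related G protein-coupled receptors (Mrgprs) are a family of small-peptide receptors that is greatly expanded in the mouse. Most members are known from sensory neurons, where several mediate itch, while Mrgprb2 is known as the receptor through which cationic peptides, such as substance P, and many drugs trigger degranulation of connective tissue mast cells (MCs) without IgE, the role that MRGPRX2 has in human MCs. Mrgprf is an orphan member that is known from smooth muscle. The members described here were 6 genes chosen by name, of 25853 genes with a row in any table: Mrgprb1, Mrgprb2, Mrgprb8, Mrgprb13, Mrgprx1 and Mrgprf. A row was present for 5 of the 6, as no table had one named Mrgprb13. A further 13 genes of the family had rows and are used for comparison.

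The study sequenced single cells from mouse ear skin with mCEL-Seq2, which counts the 3′ ends of transcripts with unique molecular identifiers (UMIs). MCs sorted as CD45+ Lin- YFP+ cells came from 7-week-old male mice, 3 of them wild type (WT) for Tln1, the gene of the integrin-activating adaptor talin-1, and 3 with Tln1 deleted in MCs (Tln1 fl/fl, here Tln1 ΔMC). Mice of both groups carried Mcpt5-Cre, which is active in connective tissue MCs, and the R26 LSL:YFP reporter, so that WT is not a Cre-free control. The labels give C57BL/6J for all mice, while the study's methods put the Mcpt5-Cre Tln1 fl/fl line with its reporter crosses on C57BL/6J-Albino (homozygous Tyr c-2J) and the Myh11-GFP line on C57BL/6J, so the MC and Myh11-GFP sets may also differ in background. A further set of CD45- GFP+ cells, from Myh11-GFP reporter mice in which a promoter of smooth muscle and pericytes drives GFP, held 4 libraries, for which the sources used here do not say how many mice were pooled or used and give the age only as the range of 7 to 12 weeks that the methods state for all genotypes. Cells with over 1000 transcripts numbered 338, 294 and 272 in WT mice 1, 2 and 3, 285, 354 and 934 in Tln1 ΔMC mice 1, 2 and 3, and 330 in the Myh11-GFP set.

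Levels are given as transcripts per 10000 transcripts of genes not named Gm followed by a digit, because Gm genes took between 14.2% and 58.0% of the transcripts of an MC mouse. Transcripts outside Gm genes per mouse ranged from 699401 in WT mouse 3 to 5238325 in Tln1 ΔMC mouse 3. Levels are not divided by gene length, since 3′ counting yields 1 tag per transcript. The MCs fitted their label. All 10 MC markers were found in every MC mouse, at a summed level of 654 to 904. In Myh11-GFP cells the sum was 0.194, and Cma1, Mcpt4, Tpsb2, Tpsab1, Fcer1a and Ms4a2 were at 0. Myh11-GFP cells instead held smooth muscle markers at a summed level of 103 and pericyte markers at 125.7. Fibroblast markers were higher than either, at 187, in 99.7% of cells, and reached 340 in library 16. The study itself describes this sort as smooth muscle cells with some pericytes and few fibroblasts. Tln1 itself stood at 4.51, 5.92 and 6.71 in the WT mice and at 5.57, 4.33 and 3.63 in the Tln1 ΔMC mice. These ranges overlapped, and 3′ tags of the targeted gene can only check the genotype where they fall in the deleted part, which is not given in the sources used here.

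In some MC libraries transcripts of other skin cells were present. Library 3 of WT mouse 2 had macrophage markers at 69.9 and keratinocyte markers at 72.8, library 8 of Tln1 ΔMC mouse 3 had keratinocyte markers at 134, library 2 of WT mouse 3 had fibroblast markers at 201 and macrophage markers at 33.9, and library 1 of WT mouse 2 had fibroblast markers at 434. Values without the first and second of these, or within cells that held a Cpa3 UMI and under 1% of transcripts from macrophage, keratinocyte and fibroblast markers, are given where they bear on a result. Every table lists the same set of well barcodes, so a shared barcode does not mark a shared cell.

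The genes lie in 2 places on chromosome 7 (GRCm38). Mrgprx1 (chr7:48020971-48027597, minus strand), Mrgprb13 (chr7:48311304-48312288, plus strand, annotated by GENCODE as an unprocessed pseudogene and by RefSeq as protein coding), Mrgprb8 (chr7:48388526-48389648, plus strand), Mrgprb1 (chr7:48444113-48456342, minus strand) and Mrgprb2 (chr7:48550965-48558086, minus strand) belong to a cluster of 28 Mrgpr genes and pseudogenes that spans 1500 kb. Mrgprf (chr7:145300828-145309557, plus strand) lies far from it, beside Mrgprd. The one Mrgpr gene between Mrgprb1 and Mrgprb2 is Mrgprx2 (chr7:48478619-48499321, minus strand), which RefSeq also lists as Mrgprb10. Despite this symbol, Mrgprb2 is the gene held to be the functional counterpart of human MRGPRX2.

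The windows from 250 bases before to 50 after the start of each gene (RefSeq, GRCm38.p6, each written 5′ to 3′ on the strand of its gene) are shown for the 3 neighbours that were well detected in MCs, Mrgprb1, Mrgprx2 and Mrgprb2, and for 2 near neighbours, Mrgprb8 and Mrgprb13, that were near or without detection. They were read from chr7:48456293-48456592, chr7:48499221-48499520, chr7:48558037-48558336, chr7:48388276-48388575 and chr7:48311054-48311353, respectively. Capitals mark TGACTCA or its reverse complement TGAGTCA, the letters of the AP-1 motif, which were looked up after the sequences had been seen.
Mrgprb1: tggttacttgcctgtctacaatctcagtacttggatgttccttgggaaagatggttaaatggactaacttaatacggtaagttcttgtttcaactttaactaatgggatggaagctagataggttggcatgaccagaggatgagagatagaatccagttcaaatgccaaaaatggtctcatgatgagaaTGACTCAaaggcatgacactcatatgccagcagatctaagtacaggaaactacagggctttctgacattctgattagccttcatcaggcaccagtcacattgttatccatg
Mrgprx2: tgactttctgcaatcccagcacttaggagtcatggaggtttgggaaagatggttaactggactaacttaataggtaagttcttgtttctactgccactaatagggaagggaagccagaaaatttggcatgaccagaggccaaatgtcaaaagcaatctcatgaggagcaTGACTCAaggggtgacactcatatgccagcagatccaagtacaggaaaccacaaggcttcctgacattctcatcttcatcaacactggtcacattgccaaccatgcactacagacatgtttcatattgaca
Mrgprb2: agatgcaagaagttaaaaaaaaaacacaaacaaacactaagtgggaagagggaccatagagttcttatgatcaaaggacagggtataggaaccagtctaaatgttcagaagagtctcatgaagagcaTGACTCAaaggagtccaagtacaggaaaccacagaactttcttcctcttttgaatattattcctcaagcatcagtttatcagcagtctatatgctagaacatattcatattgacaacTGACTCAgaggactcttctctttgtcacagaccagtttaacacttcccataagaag
Mrgprb8: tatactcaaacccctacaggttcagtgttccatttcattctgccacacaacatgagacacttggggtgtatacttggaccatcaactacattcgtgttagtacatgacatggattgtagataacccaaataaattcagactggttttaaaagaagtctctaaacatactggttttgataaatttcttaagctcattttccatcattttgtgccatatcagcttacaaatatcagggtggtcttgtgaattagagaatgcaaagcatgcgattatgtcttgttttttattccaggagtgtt
Mrgprb13: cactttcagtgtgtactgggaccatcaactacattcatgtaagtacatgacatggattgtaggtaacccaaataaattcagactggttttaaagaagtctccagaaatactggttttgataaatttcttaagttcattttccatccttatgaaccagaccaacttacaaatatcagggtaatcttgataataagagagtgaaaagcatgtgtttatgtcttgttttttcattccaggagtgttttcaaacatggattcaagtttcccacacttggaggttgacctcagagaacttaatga

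The windows of Mrgprb1 and Mrgprx2 were identical at 84.6% of 266 aligned bases, and those of Mrgprx2 and Mrgprb2 shared a run of 20 identical bases. The Mrgprb8 and Mrgprb13 windows were identical at 88.4% of 242 aligned bases. Between these 2 sets identity was 54.1% to 59.0%, which is also the range in which the globally aligned windows of Mrgprb1 and Mrgprb2 fell (54.4%). TGACTCA on either strand was present once for Mrgprb1, starting 61 bases before the gene start, once for Mrgprx2, 81 bases before it, and at 2 places for Mrgprb2, 123 and 6 bases before it. None of the other 14 Mrgpr windows in the RefSeq table held it, among them those of Mrgprb8, Mrgprb13 and Mrgprx1, while 5.20% of all 32851 windows did. For comparison, GATAA, the core of GATA factor motifs, was found for Mrgprb1, Mrgprb2, Mrgprb8, Mrgprb13, Mrgprx1, Mrgpra1, Mrgpra2a, Mrgpra2b and Mrgpra9 and in 25.4% of all windows. CATGTG, an E-box of the kind bound by MITF, was found for Mrgprb13, Mrgpra4, Mrgprb4, Mrgprb5, Mrgprd and Mrgpre and in 14.2% of all. TGTGGT, the core of the RUNX motif, was found for Mrgprb2, Mrgprx2, Mrgpra1 and Mrgprh and in 16.8% of all. The table holds no window for Mrgprf. These are matches of letters and were not tested as binding sites. The gene starts are as annotated, and 3′ tags do not show where transcription begins, so a window without the motif may not be a promoter.

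Because reads that fitted more than one locus were discarded, near-identical copies could have lowered a count. Among 551 windows of 50 bases from the last 600 bases of the longest transcript, all were unique to the gene for Mrgprb1, Mrgprb2 and Mrgprf, 98.9% for Mrgprb8 (shared with Mrgprb13) and 91.1% for Mrgprx1 (shared with pseudogenes). The coding sequence of Mrgprb1 was 85.1% identical to that of Mrgprx2, 73.0% to that of Mrgprb2, 69.8% to that of Mrgprb8, 68.7% to that of Mrgprx1 and 58.7% to that of Mrgprf.

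In MCs, Mrgprb1 was the most abundant member in every mouse, followed by Mrgprb2, while Mrgprx1 and Mrgprb8 were rare. Mrgprb1, whose ligands are not well known, stood at 21.8, 19.3 and 18.5 in the WT mice and at 20.7, 18.9 and 18.4 in the Tln1 ΔMC mice. All 6 mice thus lay close together, at a mean of 19.6 ± 1.35 (SD, n = 6), with both groups overlapping. Mrgprb2, the receptor for cationic secretagogues, stood at 7.12, 5.41 and 5.58 in the WT mice and at 5.92, 5.10 and 4.57 in the Tln1 ΔMC mice, and WT mouse 1 was the highest and Tln1 ΔMC mouse 3 the lowest. Mrgprb1 exceeded Mrgprb2 by 3.05 to 4.03 times within a mouse, with a mean ratio of 3.53 ± 0.334 (SD, n = 6).

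Mrgprx1, known in sensory neurons as a receptor for itch-evoking peptides, was found at 0.208, 0.148 and 0.0572 in the WT mice, from 18, 17 and 4 UMIs, and at 0.0385, 0.0255 and 0.0630 in the Tln1 ΔMC mice, from 3, 3 and 33 UMIs. Tln1 ΔMC mouse 3 lay above WT mouse 3, so the groups overlapped. Mrgprb8 gave 3, 3 and 0 UMIs in the WT mice and 1, 0 and 8 in the Tln1 ΔMC mice, in 14 cells in all. These counts put it at 0.0347 per 10000 or less. In the 2 mice without a UMI, a count of 0 allows up to 0.0431 in WT mouse 3 and 0.0256 in Tln1 ΔMC mouse 2. Mrgprb1 was above Mrgprb2, and Mrgprb2 above both of these genes, in all 6 mice. Mrgprx1 and Mrgprb8 did not differ beyond counting error in WT mouse 3 (4 against 0 UMIs), Tln1 ΔMC mouse 1 (3 against 1) and Tln1 ΔMC mouse 2 (3 against 0), as their exact Poisson 95% intervals overlapped. Intervals and limits from counts cover counting error only.

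**Figure D1:**
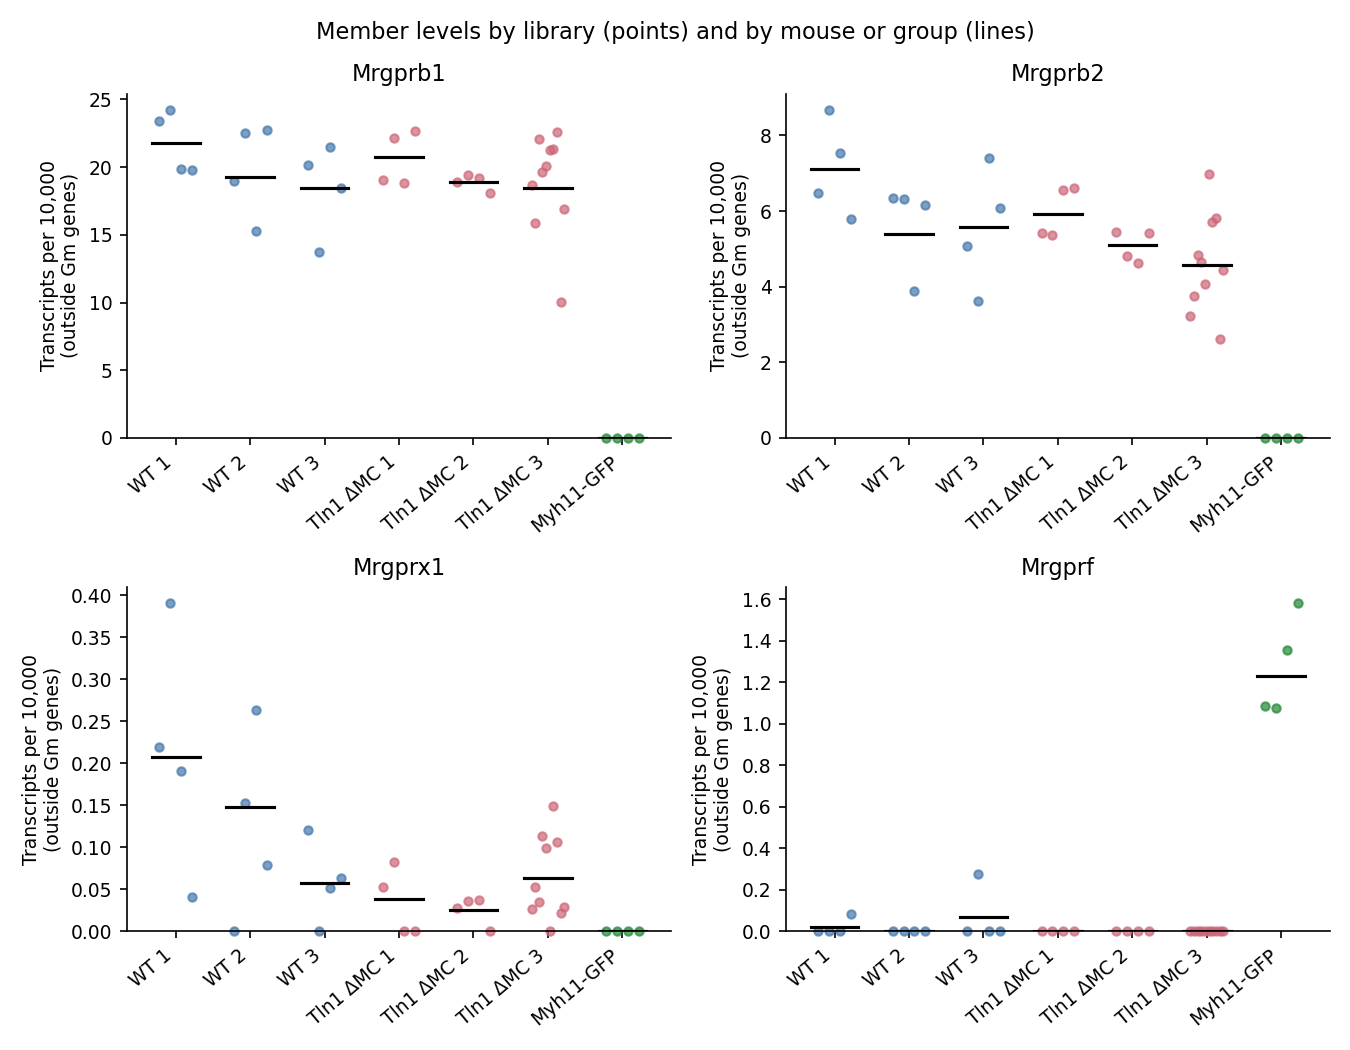
Levels of Mrgprb1, Mrgprb2, Mrgprx1 and Mrgprf (vertical axes, transcripts per 10000 outside Gm genes) in each library (points) and in each mouse or the pooled Myh11-GFP libraries (lines). Mrgprb1 and Mrgprb2 overlapped between WT and Tln1 ΔMC mice and were at 0 in Myh11-GFP cells, where Mrgprf was found in all 4 libraries.

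Within the chromosome 7 cluster, MC expression was concentrated in a stretch of adjacent genes. Mrgprx2 stood at 1.52 ± 0.558 (SD, n = 6), between 1.05 and 2.36 by mouse. On either side of the Mrgprb1, Mrgprx2 and Mrgprb2 stretch, Mrgprb8 stood at a mean of 0.0148 and Mrgprb3 at 0.00749. The only other gene of the cluster with a mean above 0.1 was Mrgpra4, at 0.497 ± 0.255 (SD, n = 6), known from sensory neurons as a peptide receptor, which lies beside Mrgprx1. Mrgpra1, Mrgpra2a, Mrgpra3, Mrgpra6, Mrgprb4 and Mrgprb5 gave 1 or 2 transcripts each over all MCs, and Mrgpra9 and Mrgpra2b had no row. Outside the cluster, Mrgpre, a member of little known function, stood at 0.806 ± 0.350 (SD, n = 6), Mrgprd gave 9 transcripts, Mrgprg 3 and Mrgprh, on chromosome 17, 3. Mas1, the founding gene of the wider family, had no row.

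**Figure D2:**
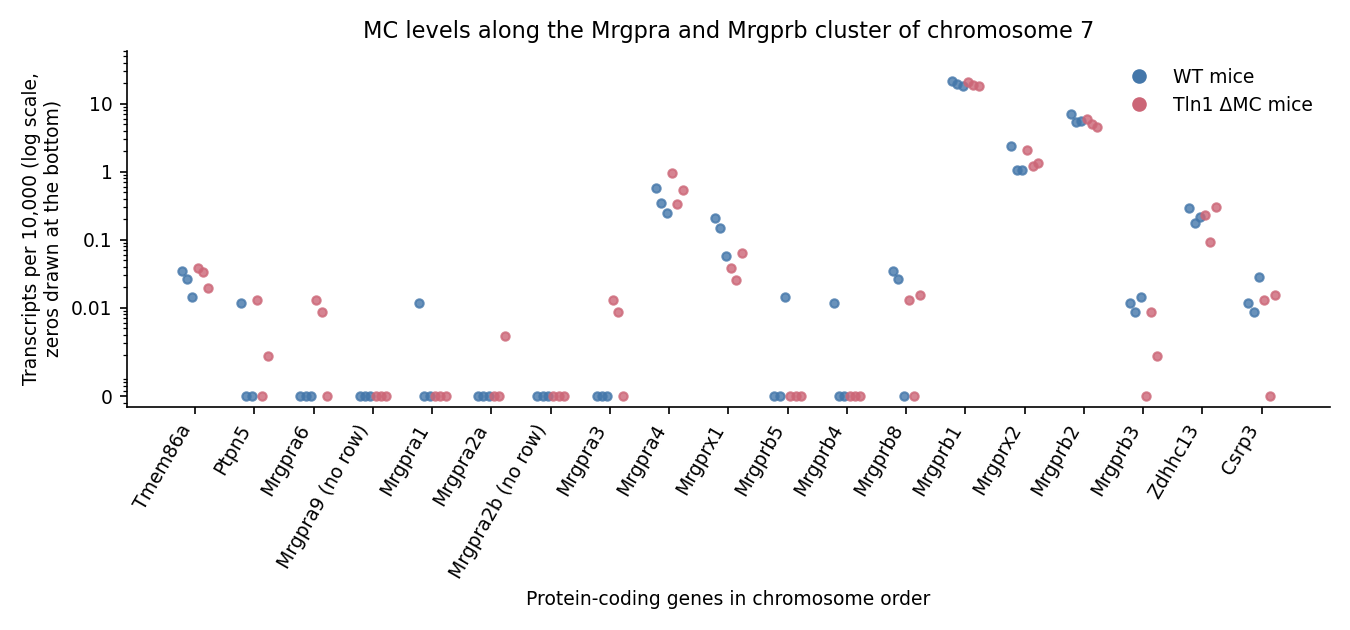
Level in each MC mouse (vertical axis, transcripts per 10000 on a log scale, with zeros drawn at the bottom) for the protein-coding genes of the chromosome 7 cluster and 2 flanking genes on each side, in chromosome order (horizontal axis). Mrgprb1, Mrgprx2 and Mrgprb2, which are adjacent, had the 3 highest levels in every mouse, while Mrgprb8 and Mrgprb3 beside them were near 0.

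The comparison of Tln1 ΔMC with WT MCs asked whether loss of the integrin-activating adaptor was accompanied by a different expression of these receptors. It was not detectable for any member. Of 9233 genes tested with limma on sums per mouse, 0 passed an adjusted p of 0.05 (percent called, 0), 517 had an unadjusted p under 0.05, and limma with voom weights also called 0. The fit is on the log2 scale with a pseudocount of 1 on levels per 1000000 transcripts. Mrgprb1 differed by a log2 fold change of -0.00 ± 0.20 (SE), with a 95% interval from -0.46 to 0.46 and an adjusted p of 0.999. Mrgprb2 differed by -0.18 ± 0.20 (SE), with an interval from -0.62 to 0.26 and an adjusted p of 0.921. A change of either gene within these bounds was not excluded by the data.

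Mrgprx1 had the lowest point estimate, a log2 fold change of -1.38 ± 0.60 (SE), with an interval from -2.74 to -0.01, an unadjusted p of 0.0487 and an adjusted p of 0.877 in the limma fit. It rested on 39 transcripts in each group of mice and was not called. Mrgprx2 (0.14 ± 0.32, SE), Mrgpra4 (0.63 ± 0.39, SE) and Mrgpre (0.10 ± 0.45, SE), the other genes of the family that passed the filter of 10 transcripts in 3 mice, were not called either. Of the members, 3 were tested: Mrgprb1, Mrgprb2 and Mrgprx1. Over all cells kept, none had the Tln1 ΔMC mice all below or all above the WT mice. All below was the case for 4.73% of the genes tested and all above for 6.63%. In cells with Cpa3 and few transcripts of other cells, however, Mrgprb2 was lower in all 3 Tln1 ΔMC mice. There it was 7.56, 6.22 and 6.27 in the WT mice and 6.00, 5.12 and 5.00 in the Tln1 ΔMC mice. The share of all genes that did so in those cells was not computed, and limma called 0 of 8787 genes there. Mrgprb8 and Mrgprf did not pass the filter.

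Totals of barcodes not in use, compared with the same barcodes in libraries that used them, were used to tie mice into sets. They tied WT mouse 1 to Tln1 ΔMC mouse 1, and WT mice 2 and 3 to Tln1 ΔMC mouse 2. Those of Tln1 ΔMC mouse 3 resembled its own cells most (r = 0.686). The first tie was weak: the highest r of WT mouse 1 was 0.380 with Tln1 ΔMC mouse 1, beside 0.304 with Tln1 ΔMC mouse 2. That of Tln1 ΔMC mouse 2 was 0.604 with WT mouse 2 and 0.541 with WT mouse 3. Within the first set, Mrgprb1 was 20.7 in the Tln1 ΔMC and 21.8 in the WT mouse, and within the second it was 18.9 against a WT mean of 18.9. Mrgprb2 was 5.92 against 7.12 in the first and 5.10 against 5.49 in the second. Mrgprx1 was 0.0385 against 0.208 and 0.0255 against 0.103, so it was the lower in Tln1 ΔMC in both sets. With these sets as a block, added after the data were seen, its log2 fold change was -1.75 with an adjusted p of 0.488 in the limma fit. The same block called 3 genes, Timp3, Cbr2 and Cd9, none of them of the family. As Tln1 ΔMC mouse 3 was alone in its set, the blocked contrast rested on Tln1 ΔMC mice 1 and 2.

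The share of cells with a UMI gave the same picture. Each cell was thinned to 500 UMIs outside Gm genes, since median depth ranged from 1887.5 UMIs in WT mouse 3 to 4761 in Tln1 ΔMC mouse 3. Mrgprb1 was then found in 54.4%, 58.5% and 52.2% of the cells of the WT mice and in 59.5%, 49.7% and 57.7% of those of the Tln1 ΔMC mice. Mrgprb2 was found in 28.2%, 25.1% and 23.1% and in 28.8%, 17.7% and 20.7%. Both overlapped between the groups. The difference between group means was 0.578 percentage points for Mrgprb1 (exact permutation test, two-sided, p = 0.9) and -3.02 for Mrgprb2 (exact permutation test, p = 0.5), both with an adjusted p of 1 over the 5 members with a row, where 3 mice against 3 cannot give a p below 0.1. Unthinned, Mrgprb1 was found in 77.2% to 97.2% and Mrgprb2 in 55.1% to 80.3% of the cells of a mouse, with the highest shares in Tln1 ΔMC mouse 3, the mouse of the greatest depth. In Myh11-GFP cells, at a median depth of 3904.5 UMIs, neither gene was found in any of 330 cells, which allows a share of up to 0.909% of cells with a UMI at this depth and does not limit the share of cells that express it.

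Among single cells, the variance of the Mrgprb1 counts lay above the value of counting error, by a margin that differed between cell sets and draws. At 500 UMIs per cell the ratio of its variance to its mean was 1.14 to 1.34 by mouse, where 1 is the value of pure counting error, and genes of like level, within 1.5-fold, had medians of 1.27 to 1.57. At 1000 UMIs per cell, where the mean is higher and counting error hides less, it was 1.25 to 1.43. At 500 UMIs the ratio was below that median in 5 of 6 mice, the exception being WT mouse 3. A second draw at 500 UMIs gave 1.09 to 1.37 by mouse. In cells with Cpa3 and few transcripts of other cells, the Mrgprb1 ratio was 1.12, 1.24 and 1.09 in the WT mice. In those of the Tln1 ΔMC mice it was 1.08, 1.37 and 1.04. No test was made of these ratios. The ratio of Mrgprb2 was 0.926 to 1.197, against medians of 1.07 to 1.15. The largest number of UMIs in an unthinned cell was 34 to 53 by mouse for Mrgprb1 and 11 to 23 for Mrgprb2.

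Mrgprb1 and Mrgprb2 were found in the same cells near to the product of their shares. At 500 UMIs, both were found in 18.7%, 13.6% and 15.0% of the cells of the WT mice, against products of 15.3%, 14.7% and 12.1%. In the Tln1 ΔMC mice both were found in 17.5%, 10.6% and 11.8% of cells, against 17.2%, 8.81% and 11.95%. At 1000 UMIs, the share with both was above the product in all 6 mice, with 44.7% against 41.2% in WT mouse 1 and 31.4% against 30.0% in Tln1 ΔMC mouse 3. In the unthinned data, 81.7% of the cells of WT mouse 1 and 97.9% of those of Tln1 ΔMC mouse 3, the deepest, held at least 1 of the pair. No test was made of these shares.

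Across the 30 MC libraries, the level of Mrgprb1 was set beside the content of MC transcripts. Mrgprb1 was lowest in library 8 of Tln1 ΔMC mouse 3 (10.0), library 2 of WT mouse 3 (13.7) and library 3 of WT mouse 2 (15.3), against 15.8 to 24.2 in the other 27. The first of these also had the lowest summed level of MC markers (331), while the other libraries had 624.8 to 1133. Taken as a percentage of the MC marker sum, Mrgprb1 was 3.04%, 2.06% and 2.45% in the 3 libraries, within the range of 1.89% to 3.10% over the other 27. Without those libraries, Mrgprb1 was 20.2 in Tln1 ΔMC mouse 3, 20.2 in WT mouse 3 and 21.6 in WT mouse 2. In cells that held Cpa3 and few transcripts of other cells, it was 22.9, 22.3 and 20.5 in the WT mice and 20.99, 19.1 and 20.1 in the Tln1 ΔMC mice. Not all libraries ran this way. Library 1 of WT mouse 2, with fibroblast markers at 434, had Mrgprb1 at 19.0. Library 4 of WT mouse 3 had Mrgprb1 at 18.5 with an MC marker sum of 976. The part of marker content in these levels was not tested.

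**Figure D3:**
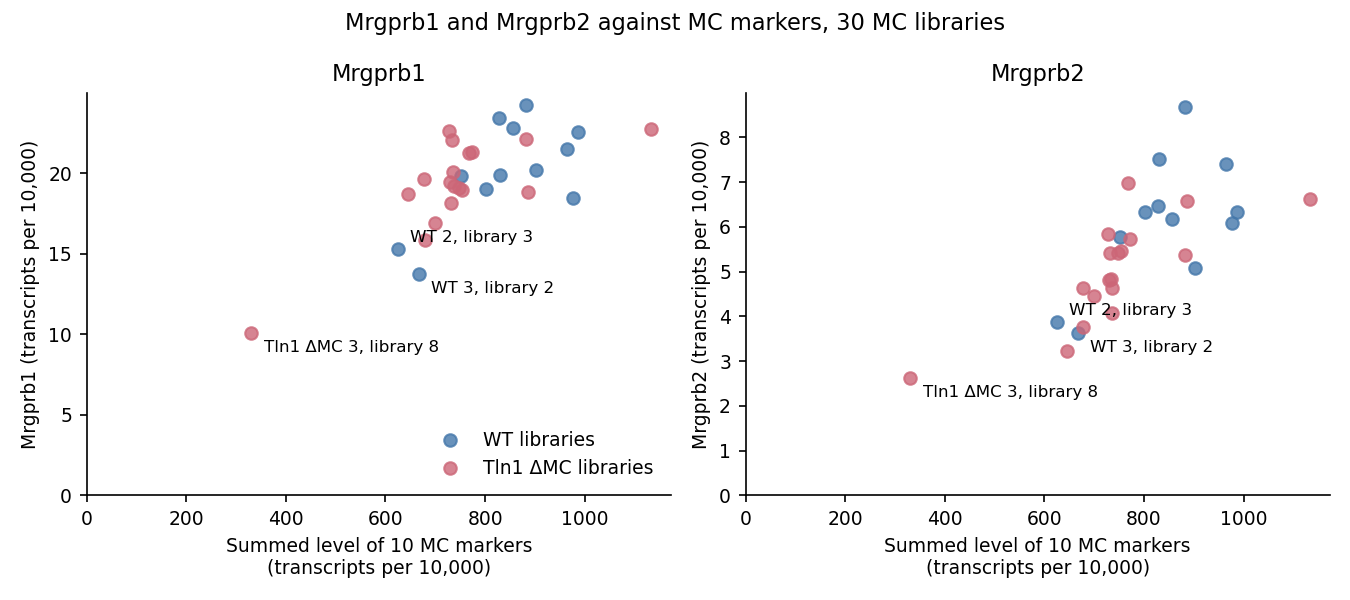
Mrgprb1 and Mrgprb2 levels (vertical axes, transcripts per 10000) against the summed level of 10 MC markers (horizontal axes) in 30 MC libraries, coloured by group. The 3 named libraries had the lowest Mrgprb1, and library 8 of Tln1 ΔMC mouse 3 had both the lowest marker sum, 331, and the lowest level of either receptor.

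The genes whose library pattern was most like that of the summed MC members (Pearson r of log2 levels over 30 libraries, centred on each mouse, among 1724 genes) were Cpa3, the MC carboxypeptidase (r = 0.910), Srgn, the proteoglycan core protein of secretory granules (r = 0.905), Kit, the receptor for stem cell factor (r = 0.886), Serpinb1a, a protease inhibitor (r = 0.874), and Cma1, a chymase (r = 0.864). Mrgprb1 and Mrgprb2 had r = 0.767 with each other. The points share each library's content of other cells, so that Krt14, a keratinocyte keratin, had r = -0.73, and these values are given as a description.

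Within a mouse, cells with more granule protease transcripts held more of both receptors. Cells of each library were split at the median of the share of transcripts from Cpa3, Cma1, Mcpt4 and Tpsb2, the proteases stored in MC granules, and receptor levels were computed with these genes left out of the total. Mrgprb1 was 26.6, 26.1 and 23.1 in the upper group against 17.8, 15.9 and 16.9 in the lower group in the WT mice. In the Tln1 ΔMC mice it was 24.3, 22.7 and 22.6 against 19.8, 16.5 and 16.4. The upper group was the higher in 6 of 6 mice, by a mean log2 ratio of 0.49 ± 0.14 (SD, n = 6, exact sign-flip permutation test over mice, two-sided, p = 0.03125, the smallest this design can give, adjusted p = 0.117 over all splits and members). Mrgprb2 was 9.40, 8.06 and 7.98 against 4.58, 3.80 and 4.33 in the WT mice, and 6.96, 6.82 and 5.84 against 5.51, 3.33 and 3.81 in the Tln1 ΔMC mice. Its log2 ratio was 0.82 ± 0.29 (SD, n = 6, p = 0.03125 and adjusted p = 0.117 in the same exact test). Neither passed the threshold after adjustment. In cells with Cpa3 and few transcripts of other cells, the ratios were 0.29 ± 0.12 and 0.59 ± 0.27 (SD, n = 6), higher in the upper group in 6 of 6 mice for both.

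A split by the summed share of Arl4c, Sla and Lgals1 gave a higher Mrgprb1 in the upper group in 6 of 6 mice, by a log2 ratio of 0.42 ± 0.09 (SD, n = 6, exact sign-flip permutation test, p = 0.03125, adjusted p = 0.117), and a Mrgprb2 that was higher in 5 of 6, by 0.26 ± 0.25 (SD, n = 6, exact test, p = 0.0625, adjusted p = 0.156). In cells with Cpa3 and few transcripts of other cells these ratios were smaller, at 0.25 ± 0.10 for Mrgprb1 (6 of 6 mice) and 0.10 ± 0.17 for Mrgprb2 (4 of 6 mice, SD, n = 6). Splits by immediate early genes (Fos, Fosb, Jun, Junb, Egr1, Dusp1 and Ier2), which are known to respond to cell isolation, gave log2 ratios of 0.00 ± 0.13 for Mrgprb1 and 0.12 ± 0.21 for Mrgprb2 (SD, n = 6). In cells with Cpa3 and few transcripts of other cells, Mrgprb1 was instead lower in the upper group in 6 of 6 mice, by -0.13 ± 0.10 (SD, n = 6, exact sign-flip permutation test, p = 0.03125, adjusted p = 0.0781). Splits by Il13, Il6 and Egr2, a set of cytokine-related genes, gave 0.04 ± 0.19 and -0.09 ± 0.21 (SD, n = 6). By the same split Mrgprx1, with 78 transcripts in all, was higher in the upper group in 6 of 6 mice, by 0.50 ± 0.48 (SD, n = 6, exact sign-flip permutation test, p = 0.03125, adjusted p = 0.117), but by 0.01 ± 0.51, in 4 of 6 mice, with cells thinned to 500 UMIs before scoring. In the cells with the greater share of Gm transcripts Mrgprb1 was the lower in 5 of 6 mice, by -0.31 ± 0.27, and Mrgprb2 in 4 of 6, by -0.20 ± 0.27 (SD, n = 6). Both receptors were also higher in the deeper cells in 5 of 6 mice, Mrgprb1 by 0.41 ± 0.37 and Mrgprb2 by 0.35 ± 0.47 (SD, n = 6). The part of depth in the other splits was not tested. With cells thinned to 500 UMIs before scoring the granule protease ratios were 0.40 and 0.74. Only the scores were thinned there, so depth was not matched between the groups.

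**Figure D4:**
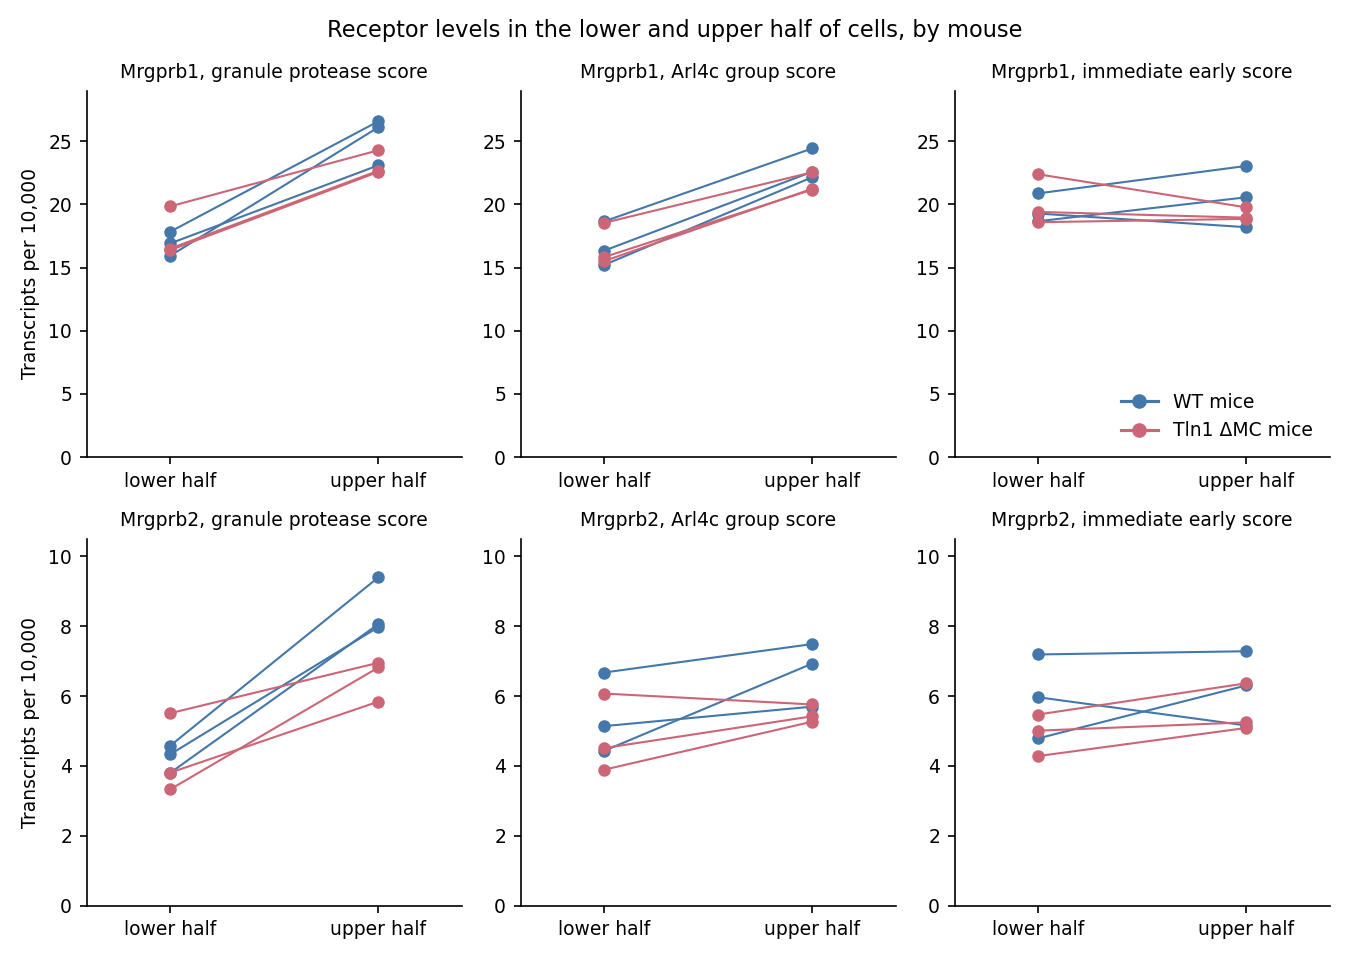
Mrgprb1 (upper row) and Mrgprb2 (lower row) in the lower and upper group of the cells of each mouse by granule protease, Arl4c group and immediate early score (vertical axes, transcripts per 10000, 1 line per mouse). All 6 lines ran upward for both receptors by granule protease score and for Mrgprb1 by Arl4c group score, while by immediate early score Mrgprb1 ran upward in 3 of 6 mice.

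Mrgprf ran opposite to Mrgprb1 and Mrgprb2: it was found in Myh11-GFP cells and nearly absent from the MC sort. In the 4 Myh11-GFP libraries, numbered 13 to 16, its level was 1.09, 1.07, 1.35 and 1.58, and it was found in 35 of 93, 27 of 78, 26 of 86 and 25 of 73 cells. Pooled, 177 UMIs put it at 1.23 (exact Poisson 95% interval 1.05 to 1.42), in 34.2% of 330 cells (exact binomial 95% interval 29.1% to 39.6%). Of the positive cells, 74 held 1 UMI, 24 held 2 and the highest cell held 7. Positive cells were also deeper, at a median of 4443 against 3494.5 transcripts outside Gm genes, and at 500 UMIs per cell the share was 7.86%, so the share depends on depth. By depth, the level was 1.08 in cells above and 1.62 in cells below the median. Mrgprb1, Mrgprb2, Mrgprb8 and Mrgprx1 had 0 UMIs in Myh11-GFP cells. Against the limit of 3 UMIs over the pooled set, 0.0210 per 10000, Mrgprb1 was at least 879-fold and Mrgprb2 at least 218-fold higher in the MC mouse with the lowest level. With 1 Myh11-GFP group of unknown mice, no test was made between the sorts.

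In the MC sort, 7 UMIs of Mrgprf were found in 2 of 2477 cells, both from WT mice, which is a level of 0.00706 (exact Poisson 95% interval 0.00284 to 0.0146). Both cells held fibroblast marker transcripts beside MC ones. They were also deep, at 15405 and 54604 transcripts outside Gm genes, against medians of 2017 in WT mouse 1 and 1889 in WT mouse 3. Whether either barcode held more than 1 cell was not tested. The cell of WT mouse 1, with 2 UMIs, had fibroblast markers at 822 and MC markers at 192.4 per 10000, with 66 Cpa3 UMIs and 21 Mrgprb1 UMIs. The cell of WT mouse 3, with 5 UMIs, had fibroblast markers at 620 and MC markers at 116. It also had macrophage markers at 91.1, which were at 0 in the cell of WT mouse 1. The summed smooth muscle markers of the cells of WT mice 1 and 3 were at 1.30 and 2.02 per 10000. The part of these transcripts in the Mrgprf count was not tested. Among MCs that held Cpa3 and few transcripts of other cells, Mrgprf was at 0 in all 6 mice.

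Within the Myh11-GFP cells, Mrgprf was higher in cells with more contractile transcripts. Cells of each library were split at the median of the share from Acta2, Myh11, Tagln, Cnn1, Des and Mylk, the contractile genes of smooth muscle. By library, Mrgprf was 1.82, 1.59, 1.88 and 2.27 in the upper group against 0.453, 0.693, 0.859 and 1.06 in the lower group, so that the upper group was the higher in 4 of 4 libraries. Pooled, it was 1.85 (exact Poisson 95% interval 1.54 to 2.21, 124 UMIs) against 0.712 (0.533 to 0.931, 53 UMIs), a log2 ratio of 1.38, and the intervals did not overlap. A split by fibroblast genes (Col1a1, Col1a2, Col3a1 and Dcn) ran the other way, at 0.813 (0.617 to 1.05) in the upper group against 1.69 (1.401 to 2.03) in the lower group. A split by pericyte genes (Rgs5, Kcnj8, Abcc9, Higd1b and Steap4) gave 1.31 (1.06 to 1.60) against 1.14 (0.902 to 1.43), with overlapping intervals. These intervals cover counting error, and the libraries may come from 1 mouse.

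**Figure D5:**
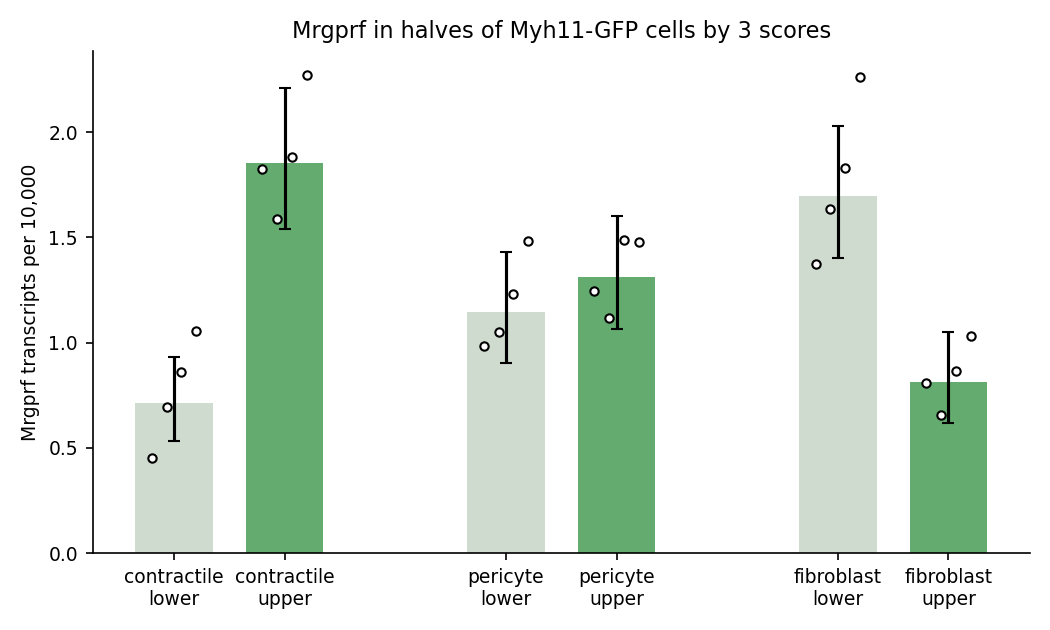
Mrgprf level in Myh11-GFP cells (vertical axis, transcripts per 10000) in the lower and upper group by contractile, pericyte and fibroblast score. Bars are pooled levels with exact Poisson 95% intervals and open points are the 4 libraries: the contractile upper group lay above the lower group in each library, at 1.85 against 0.712 pooled, and the fibroblast split ran the other way.

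The 5 genes with the highest ratio between 112 Mrgprf-positive and 206 negative Myh11-GFP cells, each thinned to 500 UMIs, among 254 genes with a level of at least 5, were Mustn1, a small muscle protein (15.2 against 5.92), Aoc3, an amine oxidase of smooth muscle (8.75 against 4.27), Tagln, an actin-binding protein of smooth muscle (31.96 against 15.6), S100a4, a calcium-binding protein (21.96 against 11.1), and Notch3, a receptor of mural cells (15.7 against 8.06). Of the other contractile genes, Acta2 was 55.0 against 35.7, Myh11 21.1 against 16.9 and Mylk 26.8 against 24.0. Cnn1 was 0.357 against 0.194, and Des ran the other way, at 2.86 against 3.01. The pericyte gene Rgs5 was 124.6 against 96.1, whereas Col1a1 was 22.3 against 24.4. The 5 genes were chosen for their ratio, and none of these values carries a test.

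Genes for G proteins and effectors, a class through which receptors of this kind signal, were looked up in both sorts. Their co-expression with the receptors in single cells was not examined. Of 31 G proteins and effectors, 25 passed the filter, 0 passed the limma threshold in either direction, and their median log2 fold change was 0.02 against 0.01 over all genes tested. In MCs the most abundant were Gnai2 (11.3 ± 1.72, SD, n = 6), a Gi subunit, Gnai1 (3.26 ± 0.697, SD, n = 6), another, and Gnb1 (2.93 ± 0.304, SD, n = 6), a beta subunit. In Myh11-GFP cells they were Gnai2 (6.91), Gnb1 (2.17) and Plcb4, a phospholipase C (1.78), which was at 0.0565 ± 0.0392 (SD, n = 6) in MCs.

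Of 17 genes for ligand precursors, 14 had a row and 1, Penk, the enkephalin precursor, passed the filter, with a log2 fold change of 1.23 that was not called. The MC levels were 0.330 ± 0.305 for Penk, 0.0832 ± 0.129 for Camp, the cathelicidin, and 0.0409 ± 0.0377 for Adm, adrenomedullin (SD, n = 6). Myh11-GFP cells held Adm at 0.160, Penk at 0.0903 and Tac1, the substance P precursor, at 0.0625. Of 20 other peptide and anaphylatoxin receptors, 18 had a row, 7 passed the filter, 0 were called in either direction, and the median log2 fold change was -0.02. The most abundant in MCs were Ednra, an endothelin receptor (0.931 ± 0.171), F2r, a thrombin receptor (0.826 ± 0.117), and Ptger3, a prostaglandin E2 receptor (0.295 ± 0.0274, SD, n = 6), so that each was below Mrgprb2 in every mouse. Ednra (2.05), Ednrb (1.08) and F2r (0.424) led in Myh11-GFP cells.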

How the data were processed

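Single-cell tables of 34 libraries were used as deposited. Per the study's methods, the authors pooled 96 cells per library, mapped reads with bwa (BWA 0.6.2-r126 in the submitters' processing notes) to ENCODE VM9 transcripts (mm10), discarded reads that fitted several loci, counted 6-base UMIs and corrected them for collisions. The deposited values, called transcripts here, are therefore not raw counts: solving the correction for 4096 possible UMIs gave whole UMIs for all values (tolerance 4e-12), and no count model was used on them.

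Cells with over 1000 transcripts and at most 2% Kcnq1ot1 were kept, and the second limit removed 0 cells. Cells were summed per mouse, scaled by transcripts outside Gm genes and TMM factors, and tested as log2(level per 1000000 + 1) with limma 3.58.1 (R 4.3.3, trend, Benjamini-Hochberg) in genes with at least 10 transcripts in 3 mice. Single values were compared with exact permutation tests over mice. Library totals outside Gm genes give the precision stated beside each value. Where nothing says that libraries of a mouse are separate, the mouse is the replicate. The mouse is read from the number in the sample title, which the labels do not define further, so p-values measure the spread between these samples. Scripts were tested on simulated data. The members, gene lists and tests were chosen with earlier results of these data known.

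Genes were named by a fixed rule: the members, all other Mrgpr rows, and, of the lists of G proteins and effectors, ligand precursors and other receptors, those past the threshold or else the 3 highest in MCs and in Myh11-GFP cells, with the 5 genes most like the MC members and the 5 highest in Mrgprf-positive cells. Windows at annotated gene starts were matched by symbol for 17 Mrgpr genes, 5 of the members. Alternatives were other totals, normalization, pseudocounts, filters, cell limits, thinning depths, blocks and leaving out each mouse or library. Those added after the data were seen were the background sets as a block, leaving out both keratinocyte-rich libraries, the barcode set in use, cells with Cpa3 and few transcripts of other cells, and depth as a score.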

Additional observations from a re-analysis of the deposited data

Results flagged for a closer look

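In 36 groups of libraries, formed by a gene and a mouse or the Myh11-GFP set, 2 libraries stood apart from the others of their group, and chance alone gives about 1 in 20. Mrgprb2 in library 3 of WT mouse 2 was 3.88, below the other 3 libraries of that mouse, and without it the mouse stood at 6.28 in place of 5.41. That library also held macrophage markers at 69.9 and keratinocyte markers at 72.8, whose part in the value was not tested. Mrgprf in library 2 of WT mouse 3 was 0.275, against 0 in the other 3, from 5 UMIs in 1 cell.

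Barcodes of the set that a library did not use held 413 transcripts of Mrgprb1 over the MC libraries, which is 2.11% of all its transcripts there, and none over the Myh11-GFP libraries. They also held 3.03% of all transcripts outside Gm genes, and 9 such barcodes passed the limit on transcripts and were kept among the 2477 cells.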

How the results depend on the processing

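Of 391 alternative values of 34 results, 353 were counted as the same, 30 changed sign and 8 moved. For fold changes and splits, same meant the same sign and side of the threshold. Shares could only change sign, as their permutation test could not reach the threshold. Splits and shares on leaving out a mouse had no test, so they too could only change sign. Mean levels and co-detection were the same within an SD of the main value, Mrgprf values within a counting interval, and gene counts if equal. The log2 fold change of Mrgprb1 was 0.005 with voom weights, 0.018 without the filter on low values and 0.0507 with the background sets as a block, and it was -0.0433 to 0.059 on leaving out each mouse. On leaving out each mouse, that of Mrgprx2 was -0.0847 to 0.47 and that of Mrgpre -0.27 to 0.51. The count of genes past the threshold was 3 with the background sets as a block. It was 0 to 7 on leaving out each mouse, with 7, Dcn, Serpinf1, Col6a1, Fstl1, Col6a2, Igfbp7 and Col1a2, all lower in Tln1 ΔMC, without Tln1 ΔMC mouse 1. With totals over all genes, the mean levels over the MC mice were 11.0 for Mrgprb1 and 3.10 for Mrgprb2, since Gm transcripts then enter the total. The difference in the share of cells with Mrgprb1 was -1.41 percentage points at 1000 UMIs, -0.532 in cells with Cpa3 and few transcripts of other cells, and -1.34 to 3.54 on leaving out each mouse. That of Mrgprb2 turned from -3.02 to 7.29 unthinned, where depth differs between mice. Among the splits, thinning before scoring gave 0.11 for Mrgprx1 by Arl4c group, -0.0083 for Mrgprb1 by cytokine and -0.092 for Mrgprb1 by immediate early genes. By immediate early genes Mrgprb1 was -0.0161 between the outer tertiles and -0.13, lower in 6 of 6 mice, in cells with Cpa3 and few transcripts of other cells, where Mrgprb2 was -0.0069. On leaving out each mouse, Mrgprx1 was -0.21 to 0.0763 by Arl4c group, -0.30 to 0.0453 by Gm share and -0.0946 to 0.24 by granule protease, and Mrgprb1 was -0.0124 to 0.0812 by cytokine and -0.0274 to 0.0369 by immediate early genes. Apart from those that follow from fewer samples or other totals, the cause was not tested.

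With the replicate number as a replicate block, 0 genes passed the threshold in limma (426 at an unadjusted p under 0.05), and the log2 fold changes were -0.00 for Mrgprb1 and -0.18 for Mrgprb2. Deviations of mice with the same number correlated at 0.185, -0.259 and -0.288 over 9233 genes. Values for mice with different numbers were not computed beside them, so these do not settle whether the numbers pair the mice. The study's methods call the WT mice littermate controls, and the sources used here do not say which mice shared a litter. A block by barcode set was not run, as both sets occur within every mouse. Mrgprx1 passed the filter in only 3 of the fits without a mouse. Mrgprb8 and Mrgprf in MCs were limited by depth, at 15 and 7 UMIs.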
